A study of Mus musculus with 36 samples.

Results

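MiR-210 is a microRNA (miRNA) best known for its induction when cells are short of oxygen. Its members here were the rows of the miRNA table whose names begin with mmu-miR-210-, which were both arms of its hairpin, miR-210-5p and miR-210-3p, 2 of 469 miRNAs. The member named first, mmu-miR-210-5p, was chosen by its measured line differences and its course over time, with the spread its replicates share, so the levels and differences of both arms are given below as a description, with errors and without tests. The miRNAs were measured by small RNA sequencing in 36 samples of B3, a mouse line of early pre-B cells, which had been transduced with a retroviral vector and sorted for its GFP. In the Ikaros line (18 samples) the vector carried HA-tagged Ikaros, a transcription factor of lymphocytes, fused to the ERt2 hormone-binding domain, and in the control line (18 samples) it carried ERt2 alone. The fusion protein enters the nucleus when 4-hydroxytamoxifen (4-OHT) is given, and nuclear Ikaros drives B3 cells to stop growing and to pass to the next pre-B stage. Collection was at 0, 2, 6, 12, 18 and 24 h. Every line and time had 3 samples, numbered 1, 2 and 4. The labels give 0.5 uM 4-OHT for every sample of both lines, also at 0 h, which the methods of the study describe as without 4-OHT.

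A miRNA hairpin is cut into a 5p and a 3p strand, of which usually 1 is kept by the Argonaute protein and guides it to messenger RNAs, mainly by pairing of the seed, bases 2 to 8. Transcription of the miR-210 gene is driven by the hypoxia-inducible factor HIF-1, and the 3p strand is the arm usually taken as the guide. Among its reported targets is Iscu, a scaffold for iron-sulfur clusters, through which miR-210 lowers mitochondrial respiration. In B lymphocytes miR-210 is known to be induced by activation. Oxygen was not varied in this study, and no oxygen level is given in the labels.

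The sequences are shown because the arms parted in their time courses and can be told apart only by their letters. In the RefSeq entry for build GRCm38.p6, the hairpin lies on the minus strand at chr7:141221384-141221493, 110 bases, and no protein-coding gene of the RefSeq table spans it. The nearest was Rassf7, 2726 bases away, followed by Gm51460 at 6713 and Phrf1 at 6984 bases. MiR-210-5p takes bases 28 to 49 of the hairpin (chr7:141221445-141221466) and miR-210-3p bases 66 to 87 (chr7:141221407-141221428). In the hairpin the capitals mark the mature arms, and in the arms they mark the seed.
Mir210 hairpin: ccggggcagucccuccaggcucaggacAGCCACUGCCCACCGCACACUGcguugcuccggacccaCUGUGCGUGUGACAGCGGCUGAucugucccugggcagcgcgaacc
miR-210-5p: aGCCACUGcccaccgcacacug
miR-210-3p: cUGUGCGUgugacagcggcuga
The seeds of the arms differ from each other, and 0 other miRNAs of the table and 0 other mouse miRNAs of the RefSeq table share either of them. The arms are rich in G and C, 15 of 22 bases (68.2%) in miR-210-5p and 14 of 22 (63.6%) in miR-210-3p, whereas the median of the 391 miRNAs of the table that matched a RefSeq sequence was 50%. By this share miR-210-5p ranked 8 and miR-210-3p ranked 27 from the top. The authors corrected the values for GC content, and the part of that step in the levels was not tested.

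All values are log2 normalised values from the authors, on which 1 unit is a factor of 2. Both arms were abundant in these cells. The mean over all samples was 10.17 for miR-210-3p and 8.11 for miR-210-5p, ranks 64 and 93 from the top of 469, against a median miRNA of 3.92. The study gives a range of reads per sample, but the table holds no counts. The number of reads behind a value is thus unknown, and its precision can be judged only from the replicates. Sample medians ranged from 3.70 to 4.15. Of the markers of blood cells, miR-181a-5p was at 18.15, miR-142-5p at 14.62 and miR-155-5p at 10.77 on average, while miR-150-5p, a marker of mature lymphocytes, was at 3.90. Of those of other cell types, the myeloid miR-223-3p was at 2.11, the endocrine miR-375-3p at 1.26, the epithelial miR-200b-3p at 4.44 and the endothelial miR-126a-3p at 6.50, and 5 further marker names had no row analysed here. These means are over both lines, which differed in some of them. By limma, miR-126a-3p was 1.57 higher in the Ikaros line at 0 h (adjusted p = 3.48e-07) and 0.67 higher at 24 h (adjusted p = 0.0031). MiR-200b-3p differed by -1.99 at 0 h (adjusted p = 0.000141) and by -1.75 at 24 h (adjusted p = 0.000155), and miR-223-3p by -0.02 at 0 h (adjusted p = 0.993) and by 2.06 at 24 h (adjusted p = 0.000516). The part of other cells in the miR-210 values was not tested.

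MiR-210-5p stood highest in the Ikaros line at 6 h and lowest there at 24 h, while the control line stayed within a narrow band of means. In the Ikaros line the samples 1, 2 and 4 were at 8.56, 9.47 and 6.69 at 0 h and at 9.43, 9.63 and 8.98 at 2 h. They were at 9.71, 9.97 and 10.45 at 6 h and at 9.12, 9.29 and 8.80 at 12 h. They were at 7.13, 7.44 and 6.49 at 18 h and at 5.04, 5.22 and 6.07 at 24 h. From 2 h on, the groups of neighbouring times in this line did not overlap, with all 3 samples higher at 6 h than any at 2 h and lower at each later time than any at the time before. The control samples were at 8.41, 8.98 and 6.45 at 0 h, at 7.29, 8.97 and 7.91 at 2 h and at 7.55, 8.31 and 8.91 at 6 h. They were at 7.47, 8.52 and 8.02 at 12 h, at 7.66, 7.59 and 7.77 at 18 h and at 7.37, 8.20 and 9.11 at 24 h. The control groups of neighbouring times overlapped throughout.

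**Figure D1:**
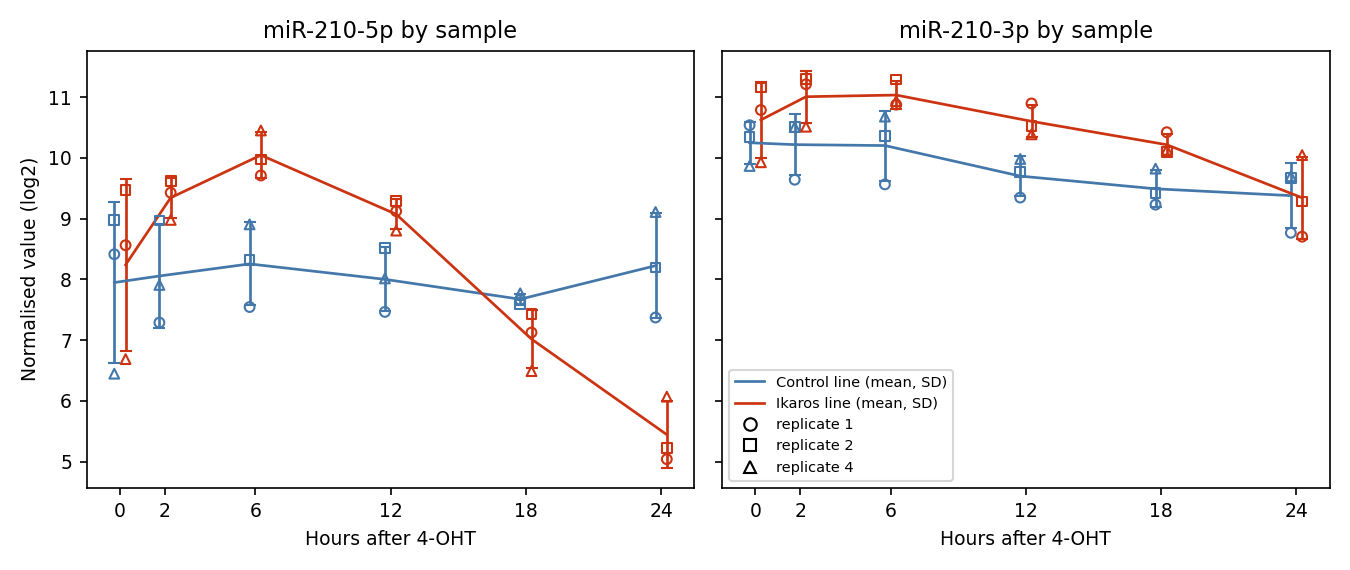
Normalised log2 values of miR-210-5p (left) and miR-210-3p (right) in every sample by hours after 4-OHT, with the mean and SD (n = 3) of each line joined over time. The 5p arm of the Ikaros line reaches 10.05 at 6 h and 5.44 at 24 h, while the means of the control line stay between 7.67 and 8.26; the 3p arm of the lines lies at 9.34 and 9.38 at 24 h.

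The Ikaros line had a mean of 8.24 ± 1.42 (SD, n = 3) at 0 h. It reached 9.35 ± 0.33 by 2 h and 10.05 ± 0.38 by 6 h, stood at 9.07 ± 0.25 by 12 h, and was down to 7.02 ± 0.48 by 18 h and to 5.44 ± 0.55 by 24 h. In the control line they lay between 7.67 ± 0.09 at 18 h and 8.26 ± 0.68 at 6 h. Put in order, Ikaros 24 h came lowest, then Ikaros 18 h, then the 6 control groups and Ikaros 0 h, then Ikaros 12 h, 2 h and 6 h. The gap between neighbours in this order was larger than the larger of their SDs in 4 places, between Ikaros 24 h and 18 h, between Ikaros 18 h and control 18 h, between control 6 h and Ikaros 12 h, and between Ikaros 2 h and 6 h. The 7 groups between 7.67 and 8.26 differed by less than their spread. Among the 469 miRNAs, miR-210-5p held rank 67 by level in the Ikaros line at 6 h and rank 176 at 24 h, whereas it stayed between ranks 92 and 102 in the control line.

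From 6 h to 24 h miR-210-5p in the Ikaros line differed by -4.60 (SE 0.56), a 24.3-fold lower level, with -4.67, -4.75 and -4.38 in numbers 1, 2 and 4. This was the lowest value of all 469 miRNAs for that interval, over which the middle 90% of miRNAs lay between -1.06 and 1.04. The step from 12 h to 18 h was -2.06 and that from 18 h to 24 h -1.57, for which number 4 showed -0.42 and the others -2.09 and -2.21. Before that, the step from 2 h to 6 h was 0.70 (0.28, 0.35 and 1.47) and that from 6 h to 12 h -0.97. The control line differed by -0.03 (SE 0.56) between 6 h and 24 h, with -0.17, -0.12 and 0.20. The samples of 2 h to 24 h come from the same 3 culture batches and those of 0 h from 3 others, so a change from 0 h and the culture batch cannot be told apart. The number 4 of these later times is culture batch 3. The labels give no sequencing batch, and its part in these changes was not tested.

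The comparison of the lines at each time turned sign for miR-210-5p between 12 h and 18 h. It takes in any standing difference between the lines beside nuclear Ikaros. At 0 h limma called 40 of the 469 miRNAs (8.53%) between the lines. The Ikaros line minus the control line was 0.29, 1.29, 1.79, 1.07, -0.66 and -2.78 at 0, 2, 6, 12, 18 and 24 h in that order, each with an SE of 0.56. In folds, the Ikaros line was 3.46-fold higher at 6 h and 6.87-fold lower at 24 h. Samples of the lines with the same number and time share a culture batch. Within these pairs the difference was 2.17, 1.66 and 1.55 at 6 h and -2.33, -2.97 and -3.04 at 24 h. All 12 pairs of 0 h to 12 h were positive and all 6 pairs of 18 h and 24 h negative, and the lines overlapped only at 0 h. At 18 h the pairs were -0.54, -0.15 and -1.28 (SD 0.57), and the difference there was close to its SE. The SEs of the line differences, here and for miR-210-3p, come from a fit that did not use the pairing. They thus include spread that the samples of a pair share. Without number 4 the difference at 18 h was -0.34. The sequencing batch of each sample is known here only from a drawing of the design in the study and not from the labels. That drawing places the control samples of the times between the first and the last mostly in another sequencing batch than the Ikaros samples. Line and sequencing batch thus cannot be told apart at those times beyond the correction made before deposit. For that correction the study ran some samples in both sequencing batches, and it reports a batch effect among Ikaros time points before it. The part of the sequencing batch in the difference at 24 h was not tested.

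**Figure D2:**
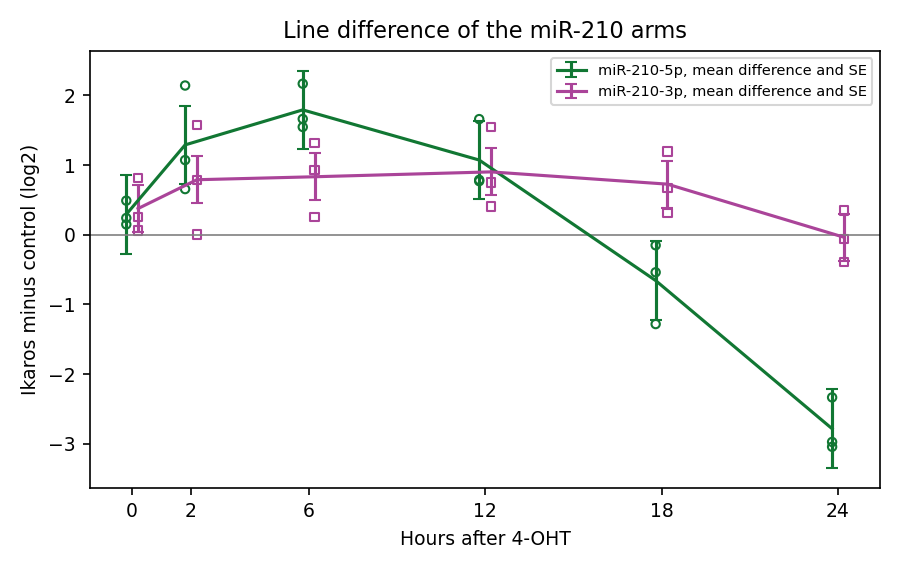
Difference of the Ikaros line minus the control line (log2) for miR-210-5p and miR-210-3p by hours after 4-OHT, as the mean with its SE from the fit over all miRNAs and as 3 points for the pairs from the same culture batch. The 5p difference goes from 1.79 at 6 h to -2.78 at 24 h, and the 3p difference from 0.83 to -0.04.

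MiR-210-3p, the more abundant arm, was higher in the Ikaros line from 2 h to 18 h and at the control level at 24 h. Its samples 1, 2 and 4 in the Ikaros line were at 10.79, 11.16 and 9.93 at 0 h, at 11.21, 11.30 and 10.51 at 2 h and at 10.88, 11.29 and 10.94 at 6 h. They were at 10.90, 10.52 and 10.39 at 12 h, at 10.42, 10.09 and 10.13 at 18 h and at 8.70, 9.28 and 10.05 at 24 h. Here only the 18 h and 24 h groups did not overlap between neighbouring times. The control samples were at 10.54, 10.34 and 9.87 at 0 h, at 9.64, 10.51 and 10.51 at 2 h and at 9.56, 10.37 and 10.68 at 6 h. They were at 9.35, 9.77 and 9.98 at 12 h, at 9.23, 9.42 and 9.82 at 18 h and at 8.77, 9.67 and 9.70 at 24 h. All neighbouring times of the control line overlapped.

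In the Ikaros line the highest mean of miR-210-3p was 11.04 ± 0.22 (SD, n = 3) at 6 h and the lowest 9.34 ± 0.67 at 24 h. In the control line the highest was 10.25 ± 0.35 at 0 h and the lowest 9.38 ± 0.53 at 24 h. In the order of the 12 groups, only control 0 h and Ikaros 12 h were neighbours with a gap (0.35) as large as their SD (0.35). The line difference was 0.38, 0.79, 0.83, 0.90, 0.73 and -0.04 at 0, 2, 6, 12, 18 and 24 h in that order, with an SE of 0.34. All 15 pairs of 0 h to 18 h were positive, the lowest by 0.01. The size depended on single numbers, since without number 1 the difference was 0.40 at 2 h and 0.58 at 12 h, and without number 2 it was 0.16 at 0 h. At 24 h the pairs were -0.06, -0.39 and 0.35, and the lines overlapped there and at 0 h. By the size of the line difference at 24 h, miR-210-3p ranked 456 of 469, whereas miR-210-5p ranked 10.

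Both lines had less miR-210-3p late in the course. Between 6 h and 24 h it differed by -1.69 (SE 0.34), 3.23-fold lower, in the Ikaros line, with -2.17, -2.01 and -0.89 in numbers 1, 2 and 4. In the control line it differed by -0.82 (SE 0.34), with -0.80, -0.69 and -0.98. These were the 5th lowest and the 3rd lowest of 469 values for each line. In the control line the 3p arm was thus lower at 24 h in all 3 numbers, while the 5p arm differed in either direction. The control groups of 6 h and 24 h overlapped for either arm.

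The arms were then set against each other within each sample, as miR-210-5p minus miR-210-3p. Ligation and PCR treat sequences unequally and the authors corrected for GC content, so the gap is read here as a difference between groups and not as the number of molecules. In the Ikaros line the gap was -2.38 ± 0.79 (SD, n = 3) at 0 h. It had narrowed to -1.66 ± 0.13 by 2 h and to -0.99 ± 0.44 by 6 h, and then stood at -1.53 ± 0.27 by 12 h, -3.20 ± 0.50 by 18 h and -3.90 ± 0.21 by 24 h. The samples were at -1.17, -1.32 and -0.48 at 6 h and at -3.66, -4.06 and -3.98 at 24 h. The control line had a mean of -2.30 ± 1.04 at 0 h and ended with -1.15 ± 0.49 at 24 h, with -1.39, -1.48 and -0.59 at 24 h. On the linear scale the 5p arm made up 33.7% ± 6.99 of the sum of both arms in the Ikaros line at 6 h and 6.32% ± 0.88 at 24 h, against 20.6% and 31.3% in the control line.

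**Figure D3:**
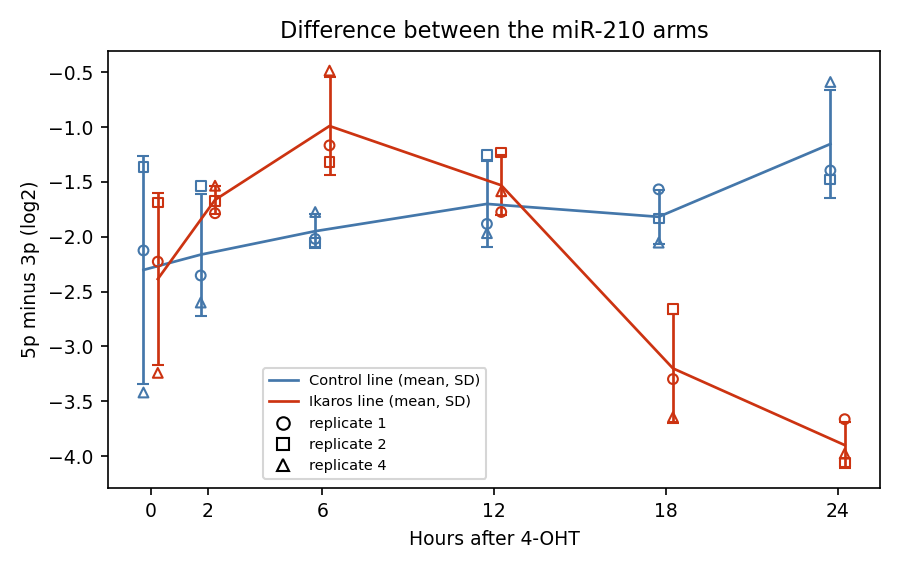
MiR-210-5p minus miR-210-3p (log2) in every sample by hours after 4-OHT, with the mean and SD (n = 3) of each line. The gap of the Ikaros line is smallest at 6 h (-0.99) and widest at 24 h (-3.90), and the control line ends at -1.15.

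Both arms come from a single hairpin, so their gap can be ranked among the 124 pairs of a 5p and a 3p arm measured here. Some of these pairs share an arm made from several hairpins, as miR-19b-3p is from Mir19b-1 and Mir19b-2. Their gap is thus not that of a single hairpin. From 6 h to 24 h the gap of miR-210 in the Ikaros line differed by -2.91, with -2.50, -2.74 and -3.49 in numbers 1, 2 and 4. This was the largest of the 124 by size, where the median was 0.43 and the next was Mir6992 at -2.07. The line difference of the gap at 24 h was -2.75, which ranked 2 after Mir92-1 at -2.88, and at 6 h it was 0.96, rank 14. In the control line the gap differed by 0.79 between 6 h and 24 h, rank 11. Since miR-210-5p was chosen for its course, these ranks are a description.

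The replicates of miR-210-5p were spread widely. Its pooled SD within groups was 0.76, rank 7 of 469 from the top, against a median miRNA of 0.36, and that of miR-210-3p was 0.44, rank 109. The 0 h samples carried much of this, since without them the SD of miR-210-5p was 0.55, rank 40. At 0 h, number 4, grown as culture batch 6, was low in both lines, 1.50 under the group mean in the control line and 1.55 under it in the Ikaros line. The mean deviation of that batch, -1.53, was the lowest of all 469 miRNAs, and for miR-210-3p it was -0.54, the 13th lowest. Number 2 of 0 h, culture batch 5, was high in both lines, by 1.03 and 1.23.

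Same-numbered samples of the lines deviated from their group means together for miR-210-5p. Over the 18 pairs the correlation of the deviations was r = 0.80, the 5th highest of 469, against a median of 0.23, and over the 15 pairs of 2 h to 24 h it was 0.60. The SD of the pair differences was 0.49, where unrelated samples of the same spread would have given 1.07. For miR-210-3p the correlation was 0.27, and the corresponding SDs were 0.54 and 0.63. The points share culture batches, and 5 of the 6 times draw on the same 3 batches, so the pairs are not independent. In culture batch 1 the control samples were below the group mean in 5 of 5 times for either arm, whereas the Ikaros samples were below it in 2 of 5.

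**Figure D4:**
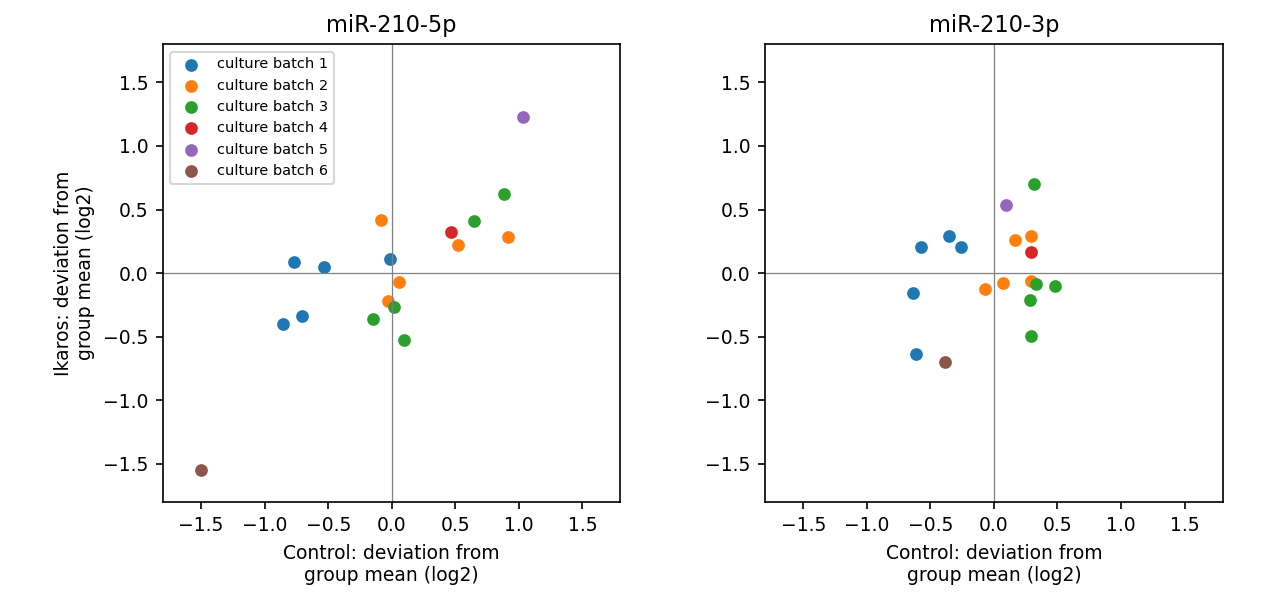
Deviation of each sample from its group mean (log2), control line on the horizontal and Ikaros line on the vertical axis, 1 point per time and replicate number, coloured by culture batch, for miR-210-5p (left) and miR-210-3p (right). For the 5p arm batch 6 lies at the lower left, at -1.50 and -1.55, and batch 5 at the upper right, at 1.03 and 1.23.

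The arms also deviated together within samples, with r = 0.76 over the 36 deviations, and miR-210-3p was the miRNA most like miR-210-5p of the other 468 by this measure. The next were miR-18b-3p (r = 0.75), miR-744-5p (0.63), miR-674-3p (0.59), miR-3075-5p (0.55) and miR-3061-3p (0.52). Over the 12 group means the arms had r = 0.74, and 10 other miRNAs were more like miR-210-5p. Values of 1 sample share a library and its scaling, and the correlations are given as a description.

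By the group means, the 5 miRNAs most like miR-210-5p other than its partner arm were miR-6399 (r = 0.86), miR-6992-5p (0.85), miR-298-5p (0.81), miR-702-5p (0.80) and miR-3098-5p (0.80), over 12 points. None of these 5 matched its range. MiR-298-5p, the most abundant of them, was at 13.92 in the Ikaros line at 0 h, 14.27 at 6 h and 12.91 at 24 h, and in the control line at 13.92 at 6 h and 14.00 at 24 h. The least like were miR-149-5p (r = -0.90), miR-1198-5p (-0.89), miR-5121 (-0.88), miR-155-5p (-0.84) and miR-350-3p (-0.84). In the Ikaros line miR-149-5p was at 5.42 at 6 h and, by 24 h, 7.30, against 5.88 and 6.03 in the control line. Of 467 miRNAs, 3 had r above 0.8 and 11 had r below -0.8, and the median was 0.09. The choice of the first 5 depended on the samples, since without number 4 only 1 of them remained among the first 5.

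A line difference of at least 1 at 6 h was seen for 26 of the 469 miRNAs and one of -1 or below at 24 h for 60. MiR-210-5p was the 1 miRNA in both sets, and 0 miRNAs had the opposite course. Since miR-210-5p was chosen by these line differences, its place in both sets is a description and no support. A turn of sign without a minimum size was common, since 82 of the other 467 miRNAs had a positive line difference at 6 h and a negative one at 24 h.

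**Figure D5:**
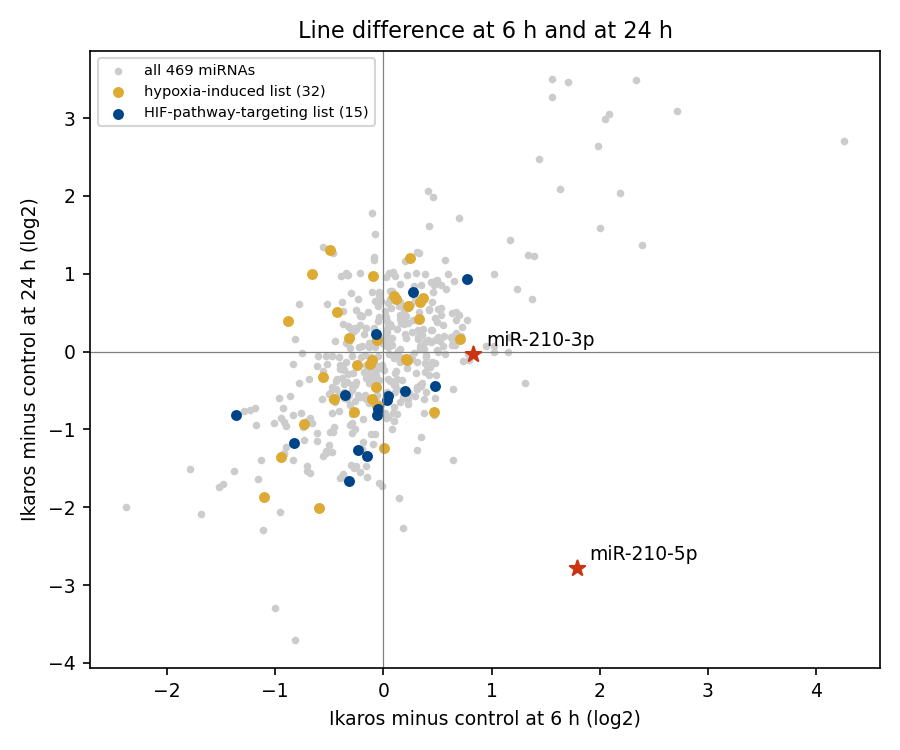
Line difference (Ikaros minus control, log2) at 6 h on the horizontal and at 24 h on the vertical axis for all 469 miRNAs, with both miR-210 arms as stars and the miRNAs of the hypoxia-induced (32) and the HIF-pathway-targeting list (15) in colour. MiR-210-5p, chosen by its line differences, lies at the lower right (1.79 and -2.78), while miR-210-3p lies near the horizontal axis (0.83 and -0.04).

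To set miR-210 beside other miRNAs of the oxygen response, a list of miRNAs reported to be induced by hypoxia in cultured cells was used, of which 18 of 19 names were measured as 32 mature miRNAs. These were tested with limma and Benjamini-Hochberg adjustment over all 469 miRNAs (adjusted p under 0.05). Of the 32, 12 stood higher (17.9% of all miRNAs did) and 9 lower (22% of all) in the Ikaros line by 24 h, together 65.6%, where 39.9% of all miRNAs were called. At 0 h, 1 was higher and 2 lower (9.38%, against 8.53% of all). The counts were 1 and 3 at 2 h (12.5%, against 11.3% of all), 2 and 3 at 6 h (15.6%, against 15.1%), 7 and 5 at 12 h (37.5%, against 21.7%) and 6 and 8 at 18 h (43.8%, against 29.9%). The count at 24 h was 12 without number 1 (37.5%, against 30.3% of all), 11 without number 2 (34.4%, against 23.5%) and 12 without number 4 (37.5%, against 29.6%). The list thus had members of either direction, and its median line difference at 24 h was -0.10, where that of all miRNAs was -0.07. Median subtraction left 12 higher and 4 lower at 24 h (50%, against 37.5% of all). Under that scaling the value for the middle of all miRNAs was 0.17 in place of -0.07. The part of this shift in the counts was not tested.

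Within the Ikaros line, 8 of the 32 rose and 5 fell from 6 h to 24 h (40.6%), where 22% of all miRNAs were called, and 7 rose and 7 fell from 2 h to 24 h (43.8%, against 28.6%). In the control line limma called 0 of the 32 from 6 h to 24 h and 0 from 2 h to 24 h (0% of all miRNAs for either), and 2 and 0 of them had an unadjusted p under 0.05. None of the 32 turned from a difference of 1 or more at 6 h to -1 or below at 24 h, and 4 of them were higher at 6 h and lower at 24 h without regard to size. Their correlations with miR-210-5p over the 12 group means ran from -0.82 (miR-181c-5p) to 0.71 (miR-27b-5p), with a median of 0.07.

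Taking the line difference at 24 h beyond that at 0 h, 5 of the 32 were higher (15.6%, against 5.76% of all) and 4 lower (12.5%, against 6.61% of all). The list had 3 such calls without number 1 (9.38%, against 2.56% of all), 3 without number 2 (9.38%, against 4.9%) and 5 without number 4 (15.6%, against 6.61%). The higher ones were miR-26a-5p, miR-26a-2-3p, miR-21a-5p, miR-181c-5p and miR-93-5p, and the lower ones miR-23a-5p, miR-27a-5p, miR-24-3p and miR-24-2-5p. The Mir23a, Mir27a and Mir24-2 hairpins are made from a single primary transcript. MiR-23a-5p was low in level, with a mean of 1.27 in the Ikaros line at 24 h. The other arm of its hairpin, miR-23a-3p, was at 11.17 there, with -0.12 beyond 0 h (adjusted p = 0.838, limma). In contrast, miR-26a-5p and miR-26a-2-3p were called in the same direction, as were miR-24-3p and miR-24-2-5p. MiR-26a-5p, known as a restraint on cell growth, was at 13.48, 13.68 and 13.69 in the Ikaros line at 0 h and at 14.99, 14.91 and 15.06 at 24 h, against 13.85, 13.86 and 13.72 and then 13.71, 13.68 and 13.94 in the control line. All 3 Ikaros samples of 24 h lay above every other of these samples, and the difference beyond 0 h was 1.40 (SE 0.19, adjusted p = 3.17e-06, limma). MiR-27a-5p was at 8.20, 8.31 and 7.95 in the Ikaros line at 0 h and at 7.09, 7.03 and 6.54 at 24 h, against 8.54, 8.64 and 8.54 and then 8.92, 8.62 and 8.74 in the control line. All 3 Ikaros samples of 24 h lay below the others, with -1.45 (SE 0.27, adjusted p = 0.000353, limma). These 2 miRNAs passed the threshold under all 9 alternatives of scaling, filter, model and left-out samples, and the other 7 did not.

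MiR-21a-5p, a miRNA linked to cell survival, had a difference beyond 0 h of 1.21 (adjusted p = 7.34e-05, limma) in the deposited values and of 0.43 (adjusted p = 0.283) after quantile normalisation, where its line difference at 24 h was -0.04 in place of 0.40. At 24 h alone, the largest further line differences in the list were those of miR-106a-3p (-1.35), miR-181b-2-3p (1.00), miR-195a-5p (0.97) and miR-106a-5p (-0.93). Of these, miR-106a-3p already differed by -0.92 at 0 h (adjusted p = 0.0377, limma), and its difference beyond 0 h was -0.43 (adjusted p = 0.522). MiR-106a-5p did not pass the threshold in 5 of the 9 alternatives.

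A further list held miRNAs reported to act on the HIF pathway itself, most of them on Hif1a, the oxygen-regulated subunit, with miR-31 on Hif1an, which encodes an inhibitor of HIF-1, and miR-322 on Cul2, a part of the ligase that marks the HIF subunit for destruction. Of its 10 names, 9 were measured as 15 mature miRNAs, and miR-31 had no row here. By 24 h, 1 stood higher and 8 lower in the Ikaros line (60%, against 39.9% of all), with a median of -0.63. At 6 h, 0 were higher and 2 lower (13.3%, against 15.1% of all). Median subtraction left 2 higher and 5 lower at 24 h (46.7%, against 37.5% of all), and without number 2, 0 were higher and 5 lower (33.3%, against 23.5%). Beyond 0 h, 0 were higher (against 5.76% of all) and 3 lower (20%, against 6.61%), namely miR-20a-3p (-1.45, adjusted p = 0.00374, limma), miR-155-3p (-1.15, adjusted p = 0.0315) and miR-17-3p (-0.59, adjusted p = 0.0441). All 3 are the partner arms of strands that are usually the guides. Of the 3, 0 passed under all 9 alternatives, and the list had 1 such call without number 1 (6.67%, against 2.56% of all called), 0 without number 2 (against 4.9%) and 0 without number 4 (against 6.61%).

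MiR-20a-3p was at 4.51, 4.51 and 4.26 in the Ikaros line at 0 h and at 3.83, 3.17 and 2.96 at 24 h. The control line was at 4.80, 4.62 and 4.51 and then at 4.97, 4.91 and 5.08. At 24 h alone, the largest further line differences past the threshold were those of miR-20b-3p (-1.26), miR-20b-5p (-1.17), miR-20a-5p (-0.82) and miR-429-3p (-0.81). The lines differed at 0 h already in miR-429-3p (-1.10, adjusted p = 0.00113, limma), whose difference beyond 0 h was 0.29 (adjusted p = 0.586), and in miR-20b-5p (-0.65, adjusted p = 0.0233), where it was -0.52 (adjusted p = 0.208). MiR-17, miR-18a, miR-20a and miR-20b belong to the miR-17-92 cluster and its paralogue, and their members are not independent of each other. The correlation with miR-210-5p over the 12 group means ran from -0.84 (miR-155-5p) to 0.68 (miR-155-3p) in the list, with a median of 0.40, where that of all miRNAs was 0.09. From 6 h to 24 h limma called 1 higher and 4 lower in the Ikaros line (33.3%, against 22% of all) and 0 in the control line, where 2 had an unadjusted p under 0.05. None of its 15 members turned from 1 or more at 6 h to -1 or below at 24 h. Without regard to size, 4 of the 15 were higher at 6 h and lower at 24 h, as were 82 of the 467 miRNAs outside miR-210.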

How the data were processed

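Small RNA libraries of 36 B3 samples were analysed from a table of 469 miRNAs. The deposited values are log2 values normalised by the authors, who used Novoalign against the mouse entries of miRBase, multiBamCov of bedtools for counting, NOISeq to filter at a CPM of 1, cqn for GC content, TMM for scaling and ComBat for the sequencing batch, and took the mean of technical replicates. Tool versions are not given in the sources used here. The submitters' processing notes name the build mm10. The study gives the depth only as a range over samples, and the counts of each miRNA are unknown.

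Samples were grouped by line and time from the labels. A model with 12 group means (24 residual degrees of freedom) was fitted with limma 3.58.1 in R 4.3.3 (lmFit, eBayes with a trend) and adjusted over 469 miRNAs. Descriptions used Python 3.11.15, pandas 2.3.3 and numpy 2.4.6. A p-value rests on the spread between the 3 cultures of a group, pooled over the 12 groups and moderated by eBayes over all miRNAs. The groups of 2 h to 24 h draw on the same 3 culture batches, so their cultures are not independent between groups. Same-numbered samples share a culture batch in the labels, and their deviations correlated at r = 0.26 over all miRNAs (0.06 at 18 h to 0.41 at 6 h).

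Members and lists were chosen with earlier results of these data known. Named were the miR-210 arms; list members past the threshold at 24 h beyond 0 h and, of the rest, the 4 of largest difference at 24 h per list; the 5 highest and 5 lowest correlations over group means and the 5 highest over deviations, without miR-210-3p; miRNAs at 1 or above at 6 h and -1 or below at 24 h; and sharers of a seed. Sequences came from RefSeq (GRCm38.p6). Alternatives were median subtraction, quantile normalisation, no trend, a mean of at least 2, only the groups compared, culture batch as a block, Spearman correlation and leaving out each replicate number.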

Additional observations from a re-analysis of the deposited data

Results flagged for a closer look

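For miR-210-5p the Ikaros line exceeded the control line by 1.79 at 6 h, and the difference stood at -2.78 by 24 h, and every pair of samples was positive at 6 h and negative at 24 h. The difference between these times was not tested, since the miRNA was chosen for it.

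Of the listed miRNAs, 12 had a line difference at 24 h that differed from that at 0 h (limma, Benjamini-Hochberg over 469 miRNAs). They were 9 of the 32 hypoxia-induced (28.1%) and 3 of the 15 HIF-pathway-targeting miRNAs (20%). Of all 469 miRNAs, 5.76% were called higher and 6.61% lower. Only miR-26a-5p and miR-27a-5p of the 12 passed under all 9 alternatives. The hypoxia-induced list held miR-26a-2-3p at 1.58 (adjusted p = 0.00177), miR-26a-5p at 1.40, miR-21a-5p at 1.21, miR-181c-5p at 0.83 (adjusted p = 0.0335) and miR-93-5p at 0.60 (adjusted p = 0.0112). On the lower side it held miR-23a-5p at -1.88 (adjusted p = 0.00472), miR-27a-5p at -1.45, miR-24-3p at -0.98 (adjusted p = 0.0231) and miR-24-2-5p at -0.94 (adjusted p = 0.0469). Of these, miR-23a-5p was low in level, with a mean of 1.27 in the Ikaros line at 24 h. The HIF-pathway-targeting list held miR-20a-3p at -1.45, miR-155-3p at -1.15 and miR-17-3p at -0.59. The samples of 0 h and 24 h come from different culture batches. A change of the line difference between these times and the culture batch thus cannot be told apart. Each line difference compares samples of the same batches, but the fit that gave these p-values did not use the pairing.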

How the results depend on the processing

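Of 176 alternative values for 24 results, 155 stayed within the replicate spread or, for counts, within 1.5 times the count given, and 21 moved beyond that. The 155 include values that could not move, so their number is no measure of stability. Among these was the arm gap under median subtraction, which shifts both arms of a sample equally. With culture batch as a replicate block the miR-210 differences (-2.78 at 24 h and 1.79 at 6 h for miR-210-5p) cannot move, since each batch holds 1 sample of each line at a time. In that fit the hypoxia-induced list had 21 calls at 24 h (65.6%, against 40.3% of all). The HIF-pathway-targeting list had 10 (66.7%, against 40.3%), and the fit moved no count by more than 1.5 times. Leaving out a replicate number, the miR-210-5p difference ranged from -3.01 to -2.65 at 24 h from 1.60 to 1.91 at 6 h and from -0.91 to -0.34 at 18 h, and the miR-210-3p difference from 0.40 to 1.18 at 2 h. Median subtraction gave -2.55 and 1.95, and quantile normalisation -2.64 and 1.62. The miR-210-3p difference at 24 h, -0.04, turned to 0.20 under median subtraction and ranged from -0.23 to 0.14 without a replicate number.

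Beyond 0 h, the hypoxia-induced list had 9 calls, 5 with quantile normalisation, and 3 to 5 without a replicate number; at 24 h it had 21 calls and 11 to 12. For the Ikaros change between 2 h and 24 h it had 14 calls (43.8%, against 28.6% of all). It had 6 with only the groups compared, and 7 to 10 without a replicate number. The HIF-pathway-targeting list had 3 calls beyond 0 h, 1 with median subtraction, and 0 to 1, had 9 calls at 24 h and 5 to 9, and had 5 from 2 h to 24 h, 1 with only the groups compared, and 1 to 5. The fits without a replicate number and of only the groups compared hold fewer samples. For the scalings the cause was not tested. Of the 5 miRNAs most like miR-210-5p, 3 were shared by Spearman correlation, 2 with median subtraction, and 1 to 4 without a replicate number. The arm gap was tried with alternatives chosen after seeing the data, and its difference from 6 h to 24 h ranged from -3.12 to -2.62 without a replicate number. Without counts, no limit set by the number of reads behind a value can be stated.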
